A study of Mus musculus with 2 samples.

Results

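The 6 genes described here make the microRNAs (miRNAs) miR-218, miR-375, miR-216a, miR-216b and miR-217, and were taken from the 1973 miRNA genes of the deposited tables by their Ensembl identifiers, which GENCODE M21 pairs with the symbols Mir218-1, Mir218-2, Mir375, Mir216a, Mir216b and Mir217. Small RNA was sequenced from the neural tube of newborn B6NCrl mice, aged 0 days. The only group held 2 libraries, from the neural tubes of pup 1 and pup 2 of the same dam, and their sex was not recorded. No treatment, transgene or second condition was part of the design, so a level in this tissue and a gap between littermates are all that could be measured. The libraries held 3216453 and 3660693 counts on the own strand of miRNA genes. Levels are given as CPM, counts scaled to 1000000 of these totals. On this scale a single read was worth 0.311 CPM in the library of pup 1 and 0.273 CPM in that of pup 2. All 6 genes had counts in both libraries, together 1860 in pup 1 and 2273 in pup 2, or 0.0578% and 0.0621% of the counts.

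A miRNA gene is transcribed into a precursor that folds back on itself, and the enzymes Drosha and Dicer release from its stem a pair of arms, named 5p and 3p. The arm loaded into an Argonaute protein finds target mRNAs mainly through its seed, bases 2 to 8, and lowers their translation and stability. In the spinal cord miR-218 is known as a miRNA of motor neurons, where it is needed for neuromuscular function. Mouse miR-375 is best known from the insulin-secreting cells of the pancreas, where it restrains secretion, and has also been described in developing motor neurons. The genes of miR-216a, miR-216b and miR-217 are best known from the acinar cells of the pancreas.

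The mature sequences decide which reads could be counted, because reads that fitted several places were counted to no gene. They are shown 5′ to 3′ from RefSeq (GRCm38.p6, the mm10 build), with the seed in capitals. The hairpins of all 6 genes were in that source and equal to the GENCODE M21 precursors in sequence and position, and 10 distinct arms were listed for them. Those of the miR-218 genes were
miR-218-5p: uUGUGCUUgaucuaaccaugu
miR-218-1-3p: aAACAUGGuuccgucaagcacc
miR-218-2-3p: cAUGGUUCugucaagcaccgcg
The 5p arm, of 21 bases, was identical in both precursors. The 3p arms were cut from related stretches, with 18 of 19 overlapping bases equal, but started 3 bases apart and so had different seeds. For miR-375 the table held the 5p arm, and miR-375-3p was not listed:
miR-375-5p: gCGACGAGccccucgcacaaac
The arms of the cluster on chromosome 11 were
miR-216a-5p: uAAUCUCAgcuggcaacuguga
miR-216b-5p: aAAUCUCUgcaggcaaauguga
miR-217-5p: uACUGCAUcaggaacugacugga
miR-216a-3p: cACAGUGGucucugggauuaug
miR-216b-3p: aCACUUACcuguagagauucuu
miR-217-3p: cAUCAGUUccuaaugcauugccu
The 5p arms of miR-216a and miR-216b were equal at 18 of 22 bases and at 6 of 7 seed bases. Counted from 1 at the 5′ end, with the miR-216a-5p base first, they differed by U1A, A8U, U11A and C17A. miR-217-5p shared no stretch longer than 5 bases with either of them, so the neighbouring genes make arms with 3 different 5p seeds.

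Seeds were rarely shared outside the set. Among 1738 mature entries of the table, the seed of miR-218-5p occurred in 1 other miRNA, miR-7002-3p, whose gene had 0 counts in pup 1 and 1 in pup 2. The seed of miR-218-1-3p occurred in miR-496b, with 0 counts in both pups, which allows up to 3 counts each. None of the other arms listed above shared its seed with another entry.

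Only the miR-218 genes shared a stretch of 22 bases with another annotated precursor, and they shared it with each other. The precursors of Mir218-1 and Mir218-2 are shown because this stretch, in capitals, limits what their counts can hold:
Mir218-1: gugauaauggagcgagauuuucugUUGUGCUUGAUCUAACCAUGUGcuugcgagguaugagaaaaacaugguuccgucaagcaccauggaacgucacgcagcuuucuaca
Mir218-2: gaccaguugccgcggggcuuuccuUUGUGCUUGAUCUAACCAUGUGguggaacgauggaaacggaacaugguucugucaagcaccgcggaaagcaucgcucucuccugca
Over their 110 bases the precursors were equal at 71 positions when compared without gaps (64.5%). The shared stretch ran from base 25 to base 46 in both and covered the whole of miR-218-5p plus 1 base. A read equal to that arm therefore fits both genes. Of the 25 fragments whose ends lie within 2 bases of the ends of miR-218-5p, 13 were in no other of 2201 annotated precursors. For each 3p arm of miR-218, and for every listed arm of the other 4 genes, all 25 such fragments were in no other precursor. The counts of Mir218-1 and Mir218-2 thus hold only what their uniquely placed reads show, and are not levels of miR-218-5p. The tables do not tell the arms of a precursor apart.

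**Figure D1:**
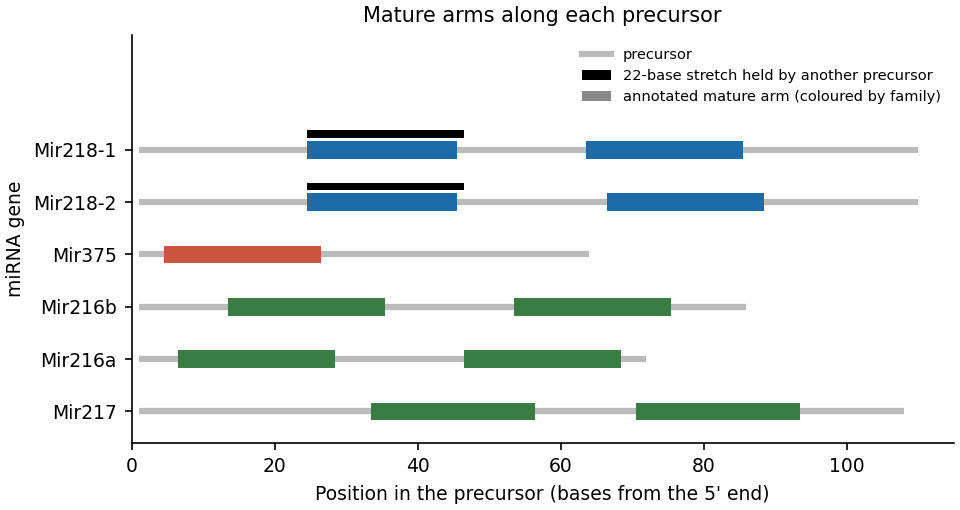
Mature arms (coloured bars) along each precursor (grey line), in bases from the 5′ end, with 22-base stretches that another annotated precursor holds in black. The black stretch, from base 25 to base 46, lies over the 5p arm of Mir218-1 and Mir218-2 and over no arm of the other genes.

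The genes lie at 4 places in the genome (mm10). Mir218-1 (ENSMUSG00000065603.1) is at chr5:48223942-48224051 on the plus strand, in an intron of Slit2. Mir218-2 (ENSMUSG00000065583.1) is at chr11:35616816-35616925 on the plus strand, in an intron of Slit3. Slit2 and Slit3 encode secreted guidance proteins for growing axons, and both are transcribed in the direction of the miRNA. Mir375 (ENSMUSG00000065616.2) is at chr1:74900658-74900721 on the minus strand, with no annotated gene around it. The nearest protein-coding genes are Cfap65, 1350 bases away, and Cryba2, 7515 bases away. Mir216b (ENSMUSG00000076318.1, chr11:28746191-28746276), Mir216a (ENSMUSG00000065539.1, chr11:28757012-28757083) and Mir217 (ENSMUSG00000065415.1, chr11:28763728-28763835) follow each other on the plus strand of chromosome 11 within 17645 bases. Mir216a and Mir217 are in introns of the noncoding gene Gm12082, and Mir216b lies before it, within the RefSeq noncoding gene Mir217hg.

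Mir218-2 had the most counts of the set. It had 860 counts in pup 1 and 1045 in pup 2, or 267 CPM (exact 95% binomial interval 249.8 to 286) and 285 CPM (268 to 303), a mean of 276 CPM ± 12.8 (SD, n = 2). The pups lay close together and their intervals overlapped. Its partner Mir218-1 had 108 and 144 counts, or 33.6 CPM (27.5 to 40.5) and 39.3 CPM (33.2 to 46.3), a mean of 36.5 CPM ± 4.07 (SD, n = 2). Mir218-1 was thus far below Mir218-2 in both pups. Each interval covers the counting error of 1 library only. No molecular identifiers are stated, so copies of the same molecule could not be told apart and the intervals may be too narrow. The sample descriptions name separate pups, while the labels give both libraries the same donor entry. If the descriptions hold, the SDs contain differences between littermates as well as technical spread, and otherwise the spread may be technical.

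Mir375 had 344 and 454 counts. These correspond to 107 CPM (95.95 to 119) in pup 1 and 124 CPM (113 to 136) in pup 2, with a mean of 115 CPM ± 12.1 (SD, n = 2). It was the gene with the clearest gap between the pups, although their intervals still overlapped.

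Mir217 was the highest gene of its cluster. It had 371 and 441 counts, or 115 CPM (103.9 to 128) and 120 CPM (109.5 to 132), a mean of 118 CPM ± 3.62 (SD, n = 2). Mir216b had 103 and 117 counts, or 32.02 CPM (26.1 to 38.8) and 31.96 CPM (26.4 to 38.3), nearly the same level. Mir216a had 74 and 72 counts, or 23.0 CPM (18.1 to 28.9) and 19.7 CPM (15.4 to 24.8), a mean of 21.3 CPM ± 2.36 (SD, n = 2). Mir216a was the lowest of the 6 genes in both pups, yet well above the limit of 0.933 and 0.820 CPM that a count of 0 allows. No member had a count on the opposite strand in either pup. This includes the place of Mir216b, where GENCODE M21 annotates Mir216c on the other strand, a gene that is not analysed here.

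**Figure D2:**
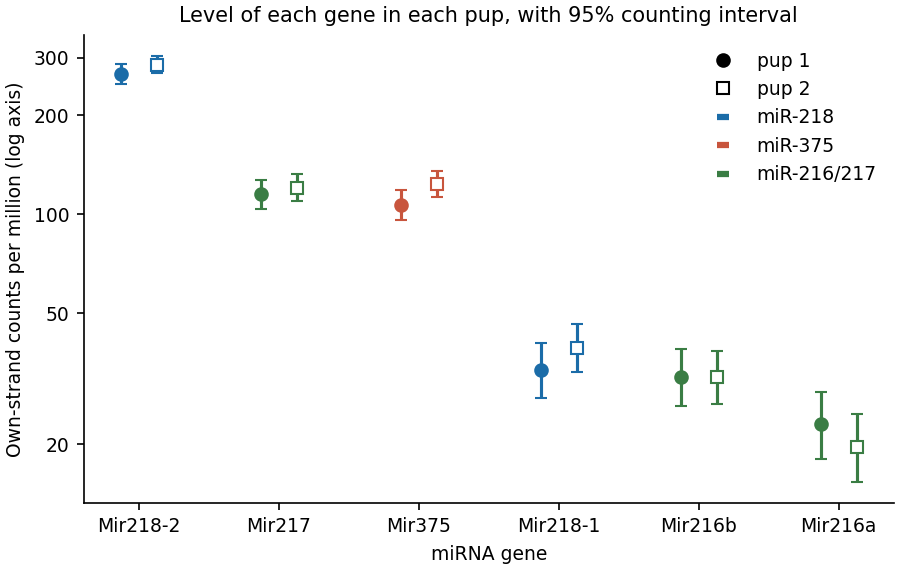
Own-strand CPM (log axis) of each gene in pup 1 (filled circles) and pup 2 (open squares), with exact 95% binomial intervals, coloured by family. Mir218-2 is at 267 and 285 CPM, Mir217 and Mir375 lie between 107 and 124 CPM, and the other 3 are at most at 39.3 CPM.

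Ordered by mean CPM, the genes were compared with their neighbours only. Genes further apart in the order, such as Mir218-1 and Mir216a, were not compared, so neighbours that did not differ need not form one level. Neighbours in this order were called different where their mean log2(CPM + 1) differed by more than a limit set from the SD between the pups, pooled over detected genes of like abundance. Mir218-2 was 2.34-fold above Mir217, a log2 difference of 1.22 against a limit of 0.44. Mir217 and Mir375 did not differ beyond this spread, with a ratio of means of 1.02, and their order turned between the pups. Mir375 was 3.17-fold above Mir218-1, a log2 difference of 1.64 against a limit of 0.46. Mir218-1 was 1.14-fold above Mir216b, within the limit, although the pups' values did not overlap (33.6 and 39.3 against 32.02 and 31.96 CPM). Mir216b was 1.499-fold above Mir216a, and this log2 difference of 0.57 was also within its limit of 0.59, although the pups' values did not overlap. With 5 in place of 1 added to the CPM it passed the limit (0.49 against 0.47).

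CPM was not divided by length here, because the annotated arms are 21 to 23 bases long whatever the length of the precursor. The lengths of the counted reads were not seen. Divided by precursor length, which runs from 64 bases in Mir375 to 110 in the miR-218 genes, Mir218-2 stayed highest at 2513 CPM per kilobase ± 116.3 (SD, n = 2) and Mir216a lowest in mean at 296 ± 32.8. On this scale Mir375 (1804 ± 189) was above Mir217 (1092 ± 33.6), a log2 difference of 0.72 against a limit of 0.49. Mir216b (372 ± 0.507) was above Mir218-1 (331 ± 37.0), within the limit. The order of these 2 pairs thus depends on the scale.

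With a minimum of 10 counts in each pup, 352 of the 1973 genes were detected, all 6 members included. Their median was 200.5 mean CPM, and Mir218-2 was the only member above it, at rank 153. Mir217 ranked 200 and Mir375 ranked 201. Mir218-1 ranked 254, Mir216b 259 and Mir216a 276.

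**Figure D3:**
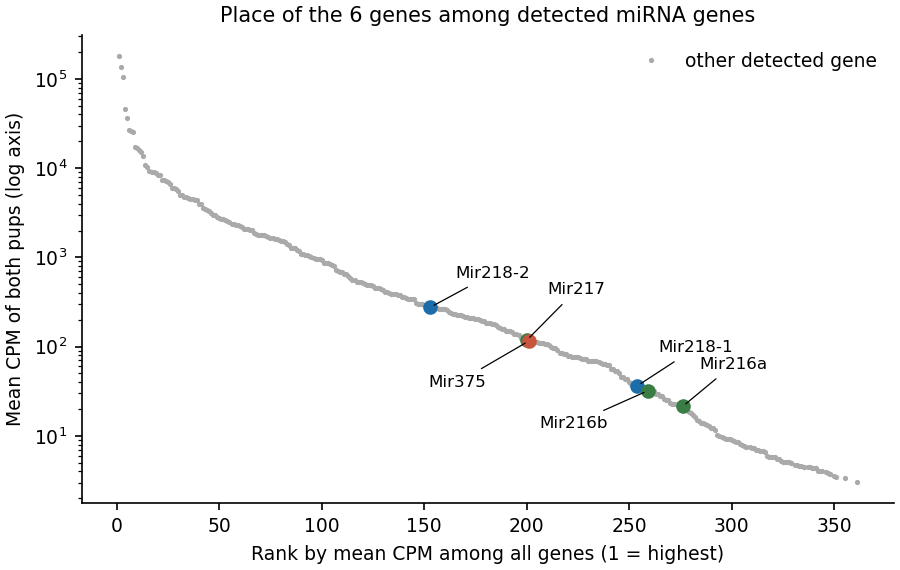
Mean CPM of both pups (log axis) against rank among all miRNA genes, for detected genes (grey), with the 6 members coloured by family. Mir218-2 is at rank 153 and the other 5 members lie between ranks 200 and 276.

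The genes closest to each member in level were found by distance in log2(CPM + 1) over the 2 libraries, which measures level and the gap between these pups only. Mir218-1 was closest to Mir449a, with 107 and 144 counts, and to Mir30c-2. Mir218-2 was closest to Mir669o, with 829 and 1012 counts, and to Mir7-1. Mir375 was closest to Mir494, with 340 and 454 counts, and to Mir152. Mir217 was closest to Mir448 and Mir494, Mir216b to Gm23450 and Mir7j, and Mir216a to Mir3093 and Mir92-2. With 2 libraries, this likeness says nothing beyond the level.

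None of the 6 genes was called different between the pups, while 169 of 413 tested genes (40.9%) were, by a two-sided exact binomial test on the counts, given the library totals, after Benjamini-Hochberg adjustment over all tested genes. Of these, 106 genes (25.7%) were higher and 63 (15.3%) lower in pup 2. The test compares 2 libraries and holds counting error only. Among the 118 other tested genes between Mir216a and Mir218-2 in mean CPM, 46 (39%) were called.

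Mir375 came closest to a call. Its log2 ratio of pup 2 over pup 1 was 0.21 (95% interval 0.0083 to 0.42), with an exact binomial p of 0.040 and an adjusted p of 0.089, and it was the only member with an unadjusted p under 0.05. Mir218-2 had a log2 ratio of 0.09 (-0.037 to 0.23), or a 1.07-fold ratio with an interval of 0.975 to 1.17, and an adjusted p of 0.29 in the exact test. Mir218-1 had a log2 ratio of 0.23 (-0.14 to 0.60). Its interval is wider than that of Mir218-2 because it rests on fewer counts.

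The genes of the cluster were spread around 0. Mir217 had a log2 ratio of 0.06 (-0.14 to 0.27), Mir216b of -0.0036 (-0.40 to 0.39) and Mir216a of -0.23 (-0.71 to 0.26), with adjusted p of 0.69, 1 and 0.52 in the exact binomial test. For Mir216a the interval ran from 0.609 to 1.20 times the level in pup 1, so these counts do not exclude a difference within that range. The smallest difference that the test could detect was not computed. In all, 4 members were higher and 2 lower in pup 2. The median log2 ratio was 0.08 over the members and 0.04 over all tested genes. The median size of the ratio, without its sign, was 0.15 over the members, 0.22 over the other genes between them in level and 0.21 over all tested genes.

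**Figure D4:**
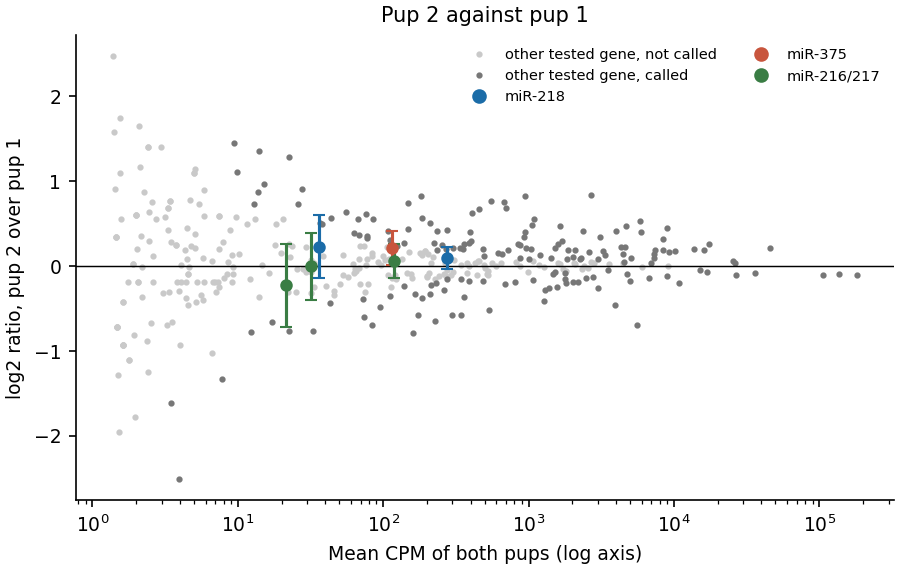
Log2 ratio of pup 2 over pup 1 against mean CPM (log axis) for 413 tested genes, light grey where not called and dark grey where called, with the 6 members in colour and their exact 95% intervals. The interval of Mir375 ends just above 0 and the intervals of the other 5 include it.

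The proportions among the genes were compared without the library totals. Mir218-2 held 88.8% of the miR-218 counts in pup 1 (exact interval 86.7 to 90.8%) and 87.9% in pup 2 (85.9 to 89.7%), so the ratio of Mir218-2 to Mir218-1 counts was 7.96 and 7.26. Fisher's exact test gave p = 0.50 for a difference between these ratios (adjusted p = 0.71). Because reads equal to miR-218-5p were set aside, this ratio need not be that of transcription from the Slit2 and Slit3 introns.

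Along the cluster, counts did not follow the order of the genes on the chromosome. Mir216b comes first, Mir216a starts 10821 bases and Mir217 17537 bases after its start, and the lowest gene was the middle one, though Mir216a and Mir216b did not differ beyond the pooled spread. Mir217 held 67.7% of the cluster's counts in pup 1 (63.6 to 71.6%) and 70.0% in pup 2 (66.3 to 73.6%). Mir216b held 18.8% (15.6 to 22.3%) and 18.6% (15.6 to 21.8%), and Mir216a 13.5% (10.8 to 16.7%) and 11.4% (9.05 to 14.2%). The cluster summed to 170 CPM in pup 1 and 172 CPM in pup 2, a mean of 171 CPM ± 1.22 (SD, n = 2).

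**Figure D5:**
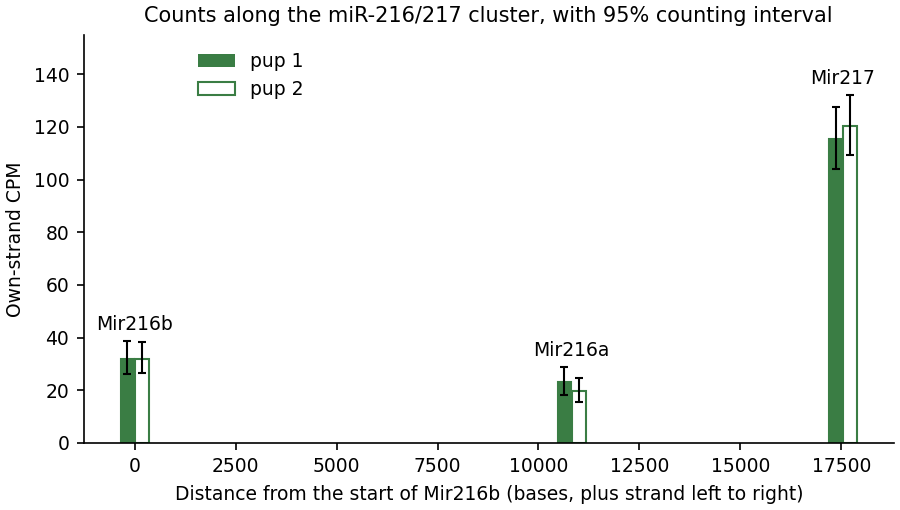
Own-strand CPM of Mir216b, Mir216a and Mir217 in pup 1 (filled bars) and pup 2 (open bars), with exact 95% binomial intervals, against the distance from the start of Mir216b in bases. Mir217, 17537 bases downstream, is highest in both pups, and Mir216a, in the middle, is lowest.

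Of all 15 pairs of members, Fisher's exact test called 0 as differing in proportion between the pups after Benjamini-Hochberg adjustment, and 0 had an unadjusted p under 0.05. The smallest p was 0.10, for Mir375 against Mir216a, whose count ratio was 4.65 in pup 1 and 6.31 in pup 2 (adjusted p = 0.71). These tests also hold counting error only, and do not show that the proportions were equal.

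Lists of miRNAs from neurons and from cell types that could come along in the dissection were measured beside the 6 genes. In whole tissue, fewer cells of a type and less RNA per cell cannot be told apart, and no value here assigns the 6 genes to a cell type. The neuronal list, led by Mir137 at 16076 CPM ± 1484 (SD, n = 2), had 16 of 19 measured genes detected. Mir9-2 (3 and 7 counts), Mir124a-2 (4 and 3) and Mir124a-3 (7 and 10) were not detected, and Mir124a-1 had 20 and 50 counts. In it, 11 genes were above Mir218-2 and 15 above Mir216a. Of 18 tested neuronal genes, 9 were called higher and 3 lower in pup 2, with a median log2 ratio of 0.15. Over all 413 tested genes, 25.7% were called higher and 15.3% lower, with a median of 0.04. Of the 16 neuronal genes whose arms were listed, 10 had an arm that another precursor holds, as the miR-218 genes do, so the ranks are those of uniquely placed reads. The arms of Mir124a-1, Mir124a-2 and Mir124a-3 were not listed, so for these genes shared arms could not be looked for.

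Markers of the pancreas and of other epithelia had counts at differing levels, and not all of them were detected. Their part in the values of Mir375, Mir216a, Mir216b and Mir217 was not tested. Of the pancreas markers outside the set, Mir148a, which many tissues use, had 409 CPM ± 123 (SD, n = 2). It was called higher in pup 2 (log2 ratio 0.62). Mir802 had 6 and 7 counts and was not detected. Of the 7 epithelial genes 5 were detected, while Mir200a (5 and 9 counts) and Mir141 (2 and 4) were not. All 7 had counts, summing to 499 CPM in pup 1 and 538 CPM in pup 2. Mir203 of the epidermis made up most of this, with 449 CPM ± 14.3, and Mir200b and Mir200c had 10.2 and 8.79 mean CPM. Of the 6 tested epithelial genes only Mir205 was called, higher in pup 2 (log2 ratio 1.28, from 42 and 117 counts). The share called over all 413 tested genes was 40.9%. Of the list of gut and kidney epithelium, Mir194-2 had 107 CPM ± 11.7 and Mir192 68.4 CPM ± 0.900, levels between those of Mir375 and Mir218-1. The other genes of that list were not detected, with 4 and 2 counts of Mir194-1 and 4 and 0 counts of Mir215, and none of its 2 tested genes was called. Mir122 of hepatocytes had 84.2 CPM ± 28.2 and was called lower in pup 2.

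Lists of other cell types lay both above and below the 6 members, which summed to 599.6 mean CPM. These sums run over unlike numbers of genes, from 1 measured endothelial gene to 8 of striated muscle. They hold uniquely placed reads only, and shared arms were not looked for outside the members and the neuronal list. The sums therefore do not rank the cell types by miRNA content. For the calls below, the shares over all 413 tested genes were 25.7% higher and 15.3% lower in pup 2. Mir126a, of endothelial cells, had 26923 CPM ± 1294 (SD, n = 2) and was called lower in pup 2 (log2 ratio -0.10). The sensory neuron genes, led by Mir182 at 2695 CPM ± 1072, summed to 3233 CPM in pup 1 and 5392 in pup 2, and all 3 were called higher in pup 2. In the oligodendrocyte list, led by Mir338 at 1048 CPM ± 105, 2 of 3 genes were called higher. The mesenchyme and cartilage list was led by Mir143 at 6977 CPM ± 145, with 4 of 5 tested genes called higher. Mir143 was among them at a log2 ratio of only 0.04, because the test holds counting error only and its counts were high. Of the remaining lists, striated muscle was led by Mir206 (85.6 CPM ± 23.0), with Mir1a-1 and both Mir133a genes at 0 counts in both pups. A count of 0 allows up to 3 counts. It does not show absence of the miRNA, because reads that fitted several places were counted to no gene. Immune genes were led by Mir150 (207 CPM ± 8.62) and erythroid genes by Mir451a (108 CPM ± 22.02). These 3 lists summed to 109, 393 and 139.8 mean CPM. Called higher in pup 2 were Mir206 and Mir499 of muscle, Mir223 of the immune list and Mir451a, and no gene of these lists was called lower.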

How the data were processed

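Small RNA (under 30 bases, per the labels) of 1 neural tube per pup was sequenced. The tables the authors deposited hold raw counts for each miRNA gene on either strand, the own strand and the opposite strand, and, per the text deposited with the tables, used mm10 and GENCODE M4. Aligner and counter: not given in the sources used here. Classes that name no gene were left out of totals: unmapped (10.8% and 11.0% of reads), multimapping (35.7% and 35.4%) and outside features on the own strand (2.97% and 2.82%).

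Symbols and positions came from GENCODE M21 (same build, 1894 of 1973 identifiers matched), arms from RefSeq. Detected means at least 10 counts in both pups. SDs for the order of levels were pooled within 4 classes of abundance of detected genes. The binomial test took genes with at least 10 summed counts, at 0.05, and log2 ratios had 0.5 added to each count. The test was tried on simulated counts that held counting error only. These had no spread between animals, so they do not show how it performs between pups. No group test was possible with 1 group.

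Named are the 6 genes, the 2 genes nearest to each in level, and the highest gene of each comparison list. Mir7002 and Mir496b (shared seeds), and Slit2, Slit3 and the other genes around the members, were named after their values were seen. So were the further list genes given beside the neuronal, pancreas, epithelial, muscle and immune lists. Members, lists and tests were chosen with earlier results of these data known. Mir9-1, Mir142 and Mir1a-2 of the lists were not measured. Alternatives were TMM (edgeR 4.0.16) and DESeq2 1.42.0 scaling, other totals, strands, filters, pseudocounts and lengths, and leaving out each pup. Scripts ran in R 4.3.3 and Python 3.11.15 with scipy 1.17.1, numpy 2.4.6, pandas 2.3.3 and, for figures, matplotlib 3.10.9.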

Additional observations from a re-analysis of the deposited data

How the results depend on the processing

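Of 168 values under alternatives, 149 were kept and 19 changed. Kept values held the call or moved by less than 1 SD, except numbers of genes called and of members detected. Those were kept where they stayed of similar size, whichever genes they held. The number of genes called ran from 160 to 180 against 169. With TMM scaling 171 genes were called, and 156 of these were also called in the main test. Some of the kept values could not change. Among them are the means with 1 pup left out. Calls between the pups under another pseudocount were also fixed, since the counts added in the log2 ratio do not enter the test. Mean CPM rose without Mir10b, the most abundant gene, in the total, by construction, to 337 (Mir218-2), 144 (Mir217), 141 (Mir375), 44.5 (Mir218-1), 39.1 (Mir216b), 26.1 (Mir216a) and 732 (all 6 summed). Over all reads of the tables it became 140.0, 59.7, 58.5, 18.5, 16.2, 10.8 and 304 in the same order, and with either-strand counts Mir216b became 31.3, beyond its small SD. The order of Mir217 and Mir375 turned per kilobase of precursor (log2 difference -0.72), and without pup 1 (-0.04; the range over leaving out each pup was -0.042 to 0.11). That of Mir218-1 and Mir216b turned per kilobase (-0.17). Mir216b over Mir216a passed its limit with a pseudocount of 5 (0.49 against 0.47); the cause was not tested. TMM and DESeq2 scaling each shifted every log2 ratio by -0.04 and left 0 members called. The adjusted p of Mir375 ran from 0.069 to 0.18 over the settings tried. With 2 pups, leaving out 1 cannot move a mean beyond its SD. No paired analysis was possible because the design has 1 group.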
